A study of Mus musculus with 12 samples.

Results

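Potassium channel genes were read across 6 regions of the brain of mice with and without interleukin-18. The members were all genes on the array whose symbol starts with Kcn, 79 of 33391 genes and unnamed transcripts. Each gene was read from 1 probe, the one with the highest mean over the 12 arrays. Of the 79, 71 were well above background on at least 6 arrays, by the scanner software's flag, and were tested beside 24863 genes and transcripts that passed the same filter. Of the 8 that did not pass, Kcna3 was above background on 5 arrays, Kcnk10 on 4 and Kcnk5 on 2, and Kcnd1, Kcnj15, Kcnj5, Kcnmb1 and Kcnv2 on 0. Because a gene could pass through the regions where it was high, counts below refer to the 71 tested members.

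The wild-type (WT) and IL-18-/- (KO) animals were males of 12 weeks, labelled as C57BL/6. Per the series' design text they were F2 littermates bred from IL-18-/- males and C57BL/6J females. Each array carried a pool of 5 mice in equal parts, and the Cy3 label was made from 400 ng of each pool's total RNA. The regions were the olfactory bulb, hippocampus, prefrontal cortex, hypothalamus, striatum and amygdala, each with 1 WT and 1 KO array. The WT and KO pools of a region shared a slide, so region and slide cannot be told apart. The KO array lay in the same slide position in every region, so genotype and position cannot be told apart either. The labels do not say whether the same mice gave the pools of different regions.

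Potassium channels let potassium ions leave the cell or, for the inward rectifiers, hold the resting potential near the potassium equilibrium. Voltage-gated pore subunits repolarise the action potential and set firing patterns, calcium- and sodium-activated channels couple firing to ion entry, and the leak channels set excitability at rest. Auxiliary subunits bind the pore subunits and change their gating or their transport to the membrane, and the electrically silent subunits do so by joining a pore with subunits of another family.

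The 75th percentile of the processed signal ranged from 208 (striatum WT) to 768 (amygdala KO), and 60.8% to 81.3% of spots were well above background. Repeats of a probe on 1 array varied with a log2 SD between 0.069 and 0.098. Levels are given below as log2 signal minus the 75th percentile of the array. Il18, the targeted gene, lay between 0.57 and 1.12 on the 6 WT arrays and between -4.35 and -3.12 on the 6 KO arrays. The sources used here do not say whether its probe lies in the deleted part of the gene. Marker genes fitted the labels in the main: 7 of 7 olfactory bulb, 5 of 7 cortex, 7 of 8 striatum, 6 of 6 hippocampus and 7 of 7 hypothalamus markers were highest in the region they mark, among 5 regions. The array labelled amygdala WT went against its label. Its summed hypothalamus markers stood at a log2 level of 7.47, beside 7.26 and 7.51 on the hypothalamus arrays and 1.55 on amygdala KO. Over the potassium channel genes, its median absolute log2 distance was 0.094 to hypothalamus WT, less than the 0.13 between the 2 hypothalamus arrays, and 0.33 to amygdala KO. The amygdala pair was therefore kept out of the tests, which used the other 10 arrays, and its values are given apart.

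Most potassium channel genes differed between regions. In the limma fit of region and genotype to the 10 arrays, 64 of 71 members passed the F-test over the 5 regions at an adjusted p under 0.05 (90.1%), beside 83.9% of all genes and transcripts tested. The region means of a member spanned a median of 1.63 in log2, against 1.07 over everything tested. The span was at least 2-fold for 58 members (81.7%, against 54.6%) and at least 4-fold for 22 (31%, against 15%). With dim arrays (not well above background) at their lowest level well above background, 58 and 20 members reached these spans. Kcnab1, a cytoplasmic beta subunit of Shaker-type channels that speeds their inactivation, had the widest span, 5.73. Kcnq1, a voltage-gated pore subunit known from heart and ear, had the narrowest, 0.23. The 7 members that did not pass the F-test were Kcna7, Kcne3, Kcne4, Kcnj1, Kcnj14, Kcnn3 and Kcnq1. In pieces of tissue, fewer cells of a type and less RNA per cell cannot be told apart.

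**Figure D1:**
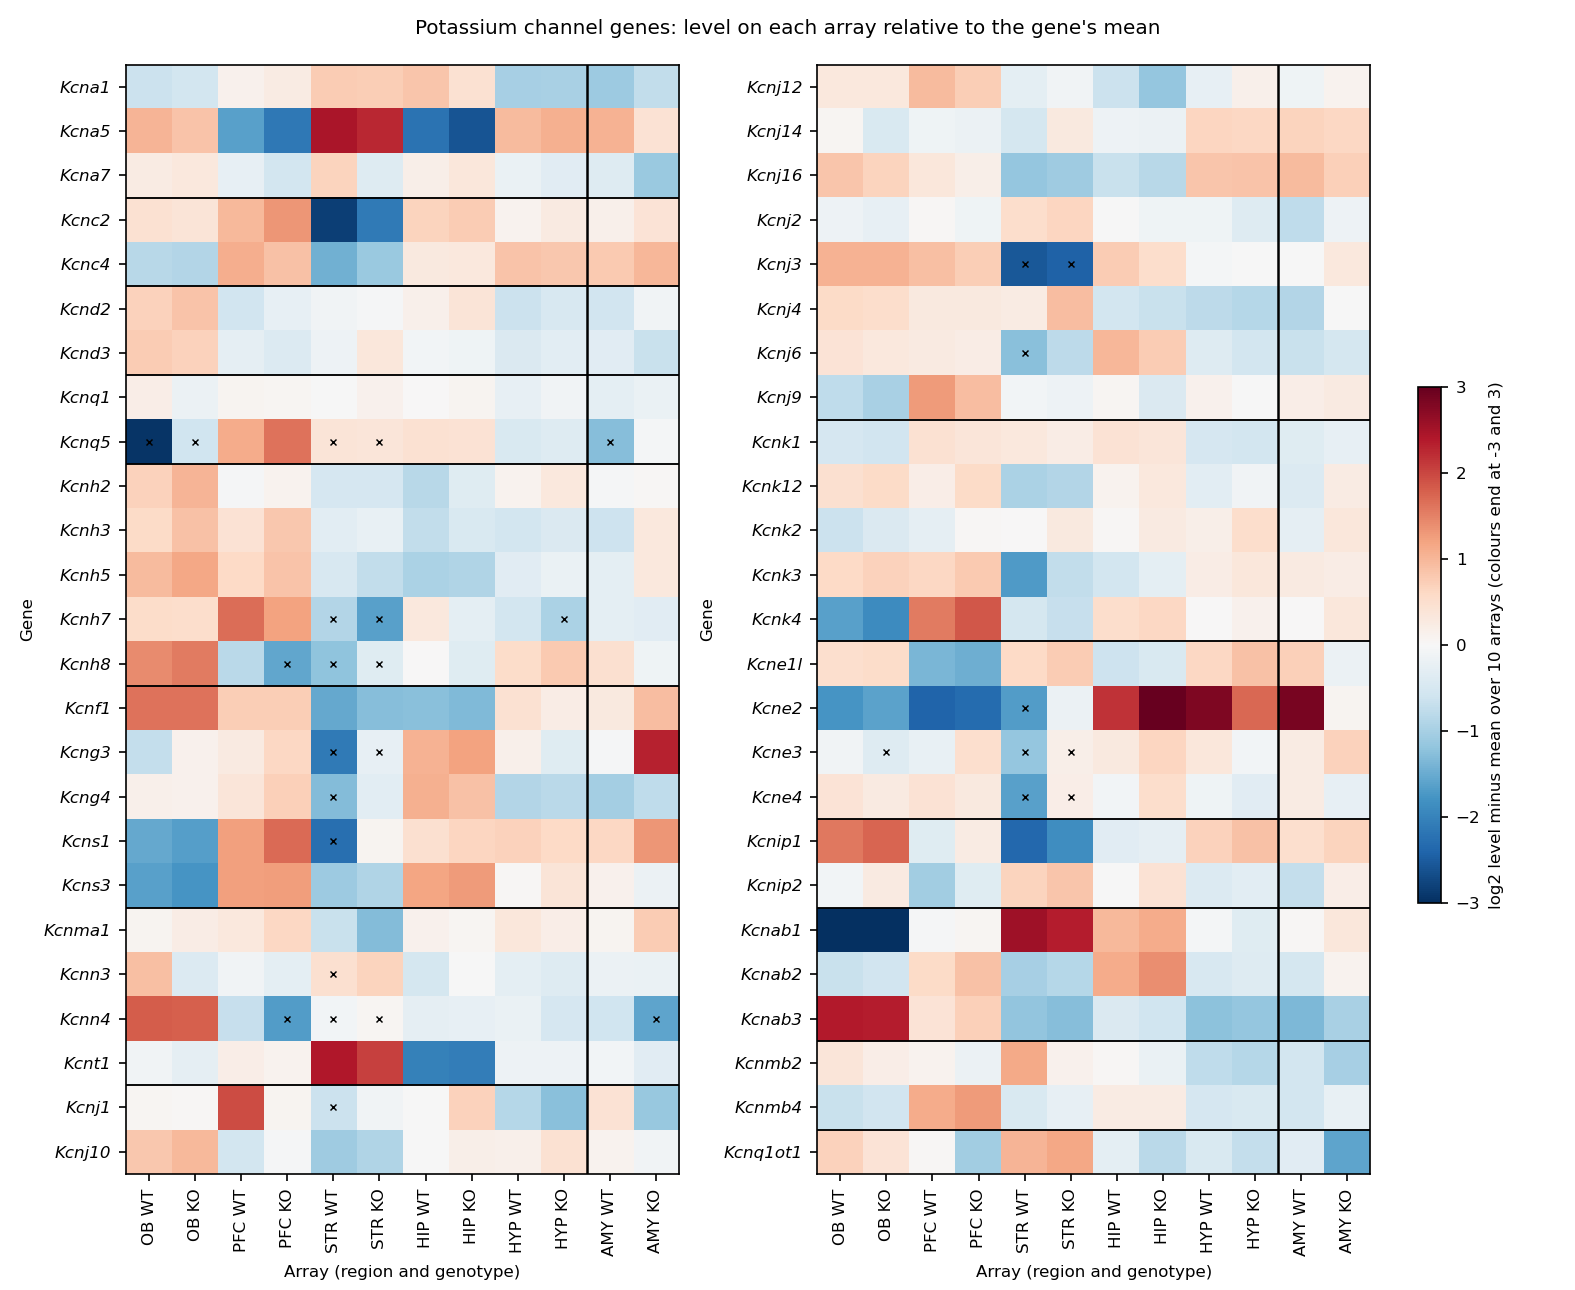
Log2 level of the 50 tested genes that the text names (rows, grouped by family, black lines between families) on the 12 arrays (columns: OB olfactory bulb, PFC prefrontal cortex, STR striatum, HIP hippocampus, HYP hypothalamus, AMY amygdala), minus the gene's mean over the 10 arrays outside the amygdala. Crosses mark values not well above background. Outside the amygdala the WT and KO columns of a region resemble each other, and the amygdala columns differ more. Kcnab1 is dark blue in the olfactory bulb and red in the striatum, and most crosses lie in the striatum.

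A member was called in a region where its level differed from the mean of the other 4 regions by at least 2-fold with an adjusted p under 0.05 in the limma fit. By that rule 44 of the 71 members (62%) were called in at least 1 region and 10 (14.1%) in at least 3, against 33.7% and 5.18% of everything tested. Kcna5, a Shaker-type delayed rectifier, was called in all 5 regions. Kcnc4, Kcne2 and Kcns3 were called in 4. With normexp background correction, which here added 50 to every corrected signal, fewer members were called in each region. There were 12 in the olfactory bulb, 11 in the prefrontal cortex, 12 in the striatum, 7 in the hippocampus and 4 in the hypothalamus. The shares over everything tested fell as well, from 11.8% to 6.5%, 8.01% to 3.34%, 21.7% to 13.6%, 7.49% to 3.25% and 6.97% to 2.89% in the same order. The prefrontal cortex was the region of highest level for 25 of the 71 (35.2%, against 15% of everything tested), and the striatum the region of lowest level for 22 (31%, against 26.9%).

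The striatum had 22 calls. There 4 members were higher and 18 lower, 31% of the members in all against 21.7% of everything tested. Calls upward took 11.8% and calls downward 9.85% of everything tested. The median member stood at -0.34 in log2 against the other regions, the median over everything at 0.047. Kcnab1 read 4.57 on the WT and 4.38 on the KO array, and between -1.34 and 3.14 with a median of 1.98 on the other 8 arrays. Its difference was 3.06 (SE 0.11, adjusted p = 2.86e-05). Kcna5 read 1.35 and 1.15 in the striatum against -3.69 to -0.03 elsewhere (median -1.50), a difference of 2.94 (SE 0.12, adjusted p = 3.41e-05). For both genes the striatum arrays stood above every other array. Kcnt1, a large-conductance channel opened by intracellular sodium, read 5.78 and 5.42 against 1.30 to 3.57 (median 3.22), a difference of 2.79 (SE 0.083, adjusted p = 1.89e-05). Its 2 further probes gave 2.62 and 0.97 for the same difference. The fourth member that was higher was Kcnq1ot1, the long non-coding transcript antisense to Kcnq1, at 1.48 and 1.61 and a difference of 1.36 (SE 0.21, adjusted p = 0.0019).

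Kcnj3 was among the 18 members that were lower in the striatum. This pore subunit of the channels opened by G proteins downstream of many inhibitory receptors read -5.13 and -5.01 in the striatum, neither well above background, and between -2.66 and -1.53 elsewhere (median -1.84). The difference is therefore a bound: Kcnj3 was at least 3.95-fold lower in the striatum (adjusted p = 1.7e-05), and its measured levels averaged -5.07 there and -1.97 elsewhere. Kcnc2, a Shaw-type subunit of fast-spiking interneurons, was well above background on both striatum arrays, at -1.85 and -1.16, and lay between 1.08 and 2.29 elsewhere (median 1.53). That is a difference of -3.09 (SE 0.15, adjusted p = 4.1e-05) with no overlap between the groups on this probe. The 2 further probes of Kcnc2 gave -2.96 and -0.45 for the same difference. On the dimmest probe the striatum, at -3.34 and -3.52, overlapped the hypothalamus, at -3.57 and -3.45. Kcnip1, a calcium-binding protein that attaches to Shal-type channels, read -3.41 and -2.92 against -1.41 to 0.70 (median -0.57), a difference of -2.64 (SE 0.12, adjusted p = 3.77e-05). Kcnf1, an electrically silent subunit, read 0.33 and 0.59 and differed by -1.77 (SE 0.095, adjusted p = 5.78e-05), although the 2 hippocampus arrays at 0.62 and 0.56 were as low. The 14 others that were lower ranged from -1.59 (Kcnc4) to -1.01 (Kcng4). They included the beta subunits Kcnab2 and Kcnab3, the large-conductance calcium-activated pore gene Kcnma1 at -1.23, the leak channels Kcnk3 at -1.52 and Kcnk12 at -1.14, and Kcnj6, a partner of Kcnj3, at -1.27. The striatum arrays had the weakest signal of the series, and 12 of the 18 were well above background on both of them; the part of this weak signal in the count was not tested. Kcng3, dim on both striatum arrays, was at least 1.36-fold lower, and Kcnh7, also dim on both, has no fold. Kcng4 and Kcns1, dim on striatum WT alone, each stood at -0.54 with that array at its lowest level well above background, under the 2-fold line. Kcnj6 was also dim on striatum WT alone, at -4.02. The span of Kcnj6 over the regions was 1.91 as measured and 1.79 with that array at its lowest level well above background. With normexp background correction, which moves the median over everything to 0.41 in the striatum, the split was 4 higher and 8 lower, the median member stood at 0.25, and Kcnj3 stood at -0.48 and was not called. Of everything tested, 10.4% were then called higher and 3.22% lower.

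**Figure D2:**
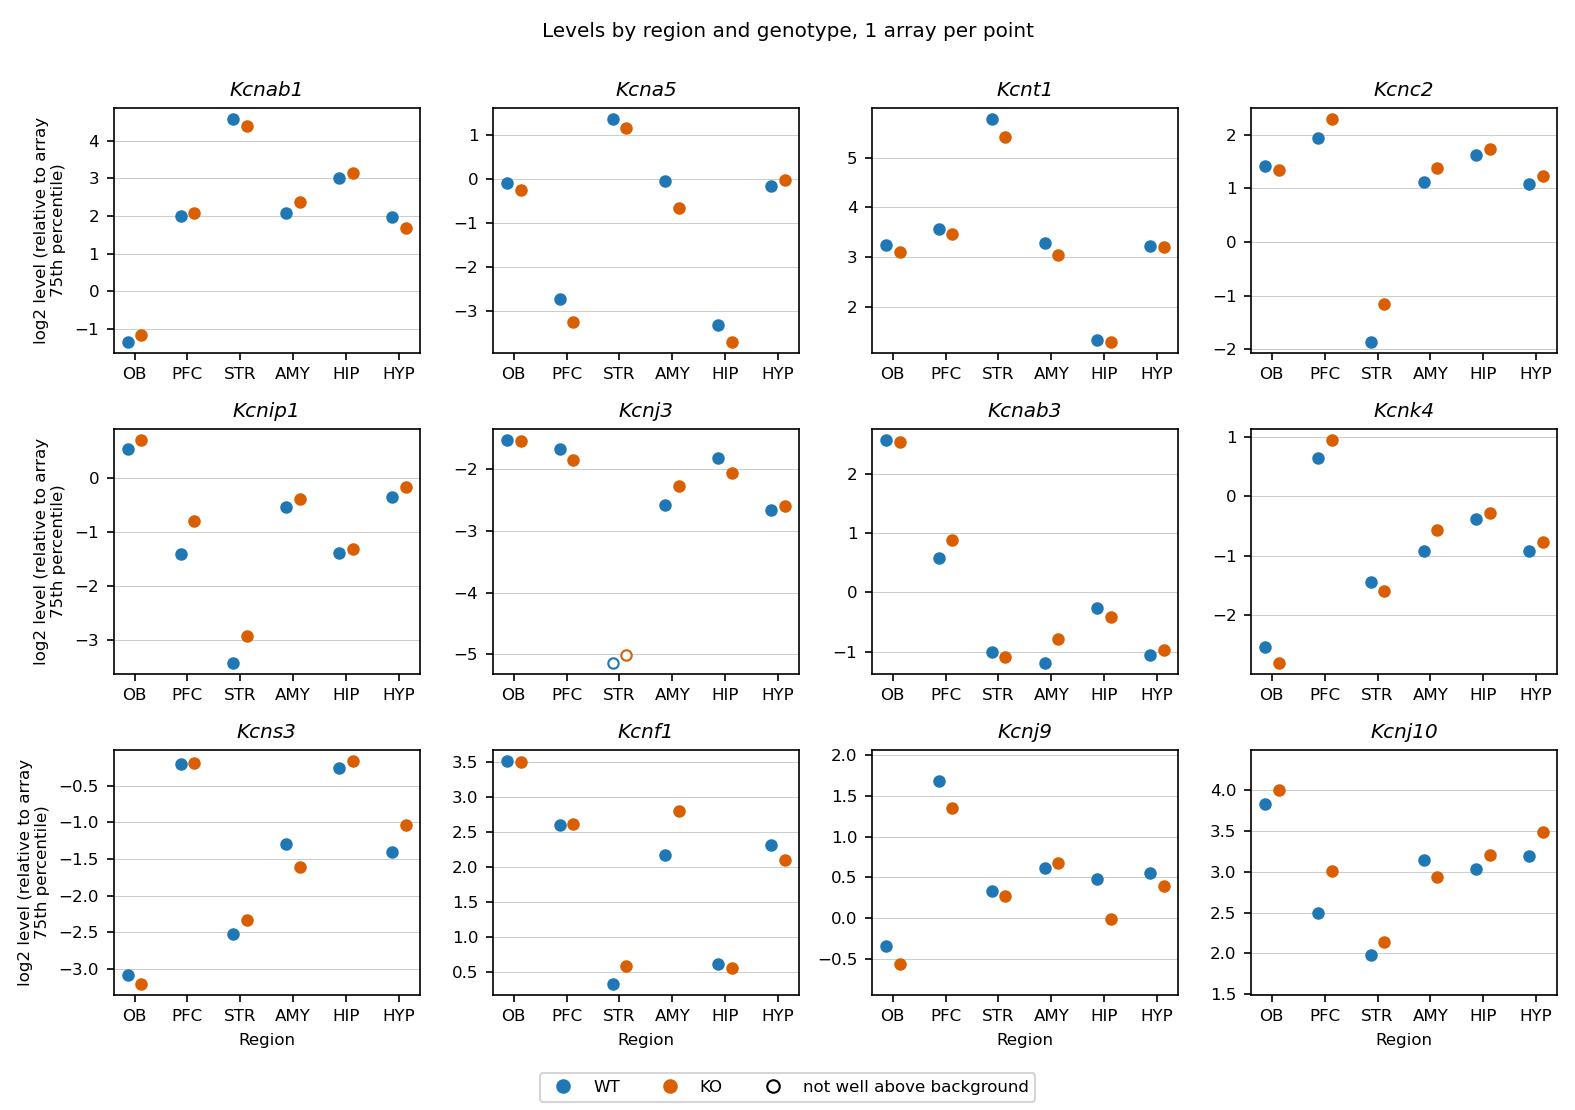
Log2 level of 12 potassium channel genes by region (abbreviated as in the heatmap), 1 point per array, blue for WT and orange for KO; open points were not well above background. Vertical axes differ between genes. Kcnab1, Kcna5 and Kcnt1 are highest in the striatum, Kcnc2, Kcnip1 and Kcnj3 lowest there, and WT and KO of a region lie close together beside the spread over regions.

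Kcna5, Kcnj3 and Kcnk4 are the 3 members of widest span by measured levels with 1 listed start site in the RefSeq promoter table, and their promoters are shown because these genes differ widely between regions. The span of Kcnj3 rests on striatum levels below background: it was 3.54 as measured and 2.41 with those arrays at their lowest level well above background. Each sequence runs from 250 bases before to 50 bases after the start in GRCm38.p6, 5′ to 3′ on the gene's strand. Capitals mark matches to the letters of 3 motifs, on either strand and at any place in the window. The GC box was searched as GGGCGG. For the TATA box the letters were TATAAA. The cAMP response element is palindromic and was searched as TGACGTCA. No matches overlap in these sequences.
Kcna5 (chr6:126535506-126535805, minus strand): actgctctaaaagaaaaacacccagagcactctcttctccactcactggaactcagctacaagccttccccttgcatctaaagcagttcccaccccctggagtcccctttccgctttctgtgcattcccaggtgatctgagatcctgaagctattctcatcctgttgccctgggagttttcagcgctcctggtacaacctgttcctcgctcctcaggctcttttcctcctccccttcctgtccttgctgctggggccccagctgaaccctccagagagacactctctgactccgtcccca
Kcnj3 (chr2:55435720-55436019, plus strand): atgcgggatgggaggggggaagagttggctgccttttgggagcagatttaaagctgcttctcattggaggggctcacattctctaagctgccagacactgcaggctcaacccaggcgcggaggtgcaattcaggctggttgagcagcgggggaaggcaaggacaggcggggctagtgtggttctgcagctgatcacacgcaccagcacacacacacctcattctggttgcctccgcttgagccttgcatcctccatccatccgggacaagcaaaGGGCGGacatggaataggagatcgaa
Kcnk4 (chr19:6934466-6934765, minus strand): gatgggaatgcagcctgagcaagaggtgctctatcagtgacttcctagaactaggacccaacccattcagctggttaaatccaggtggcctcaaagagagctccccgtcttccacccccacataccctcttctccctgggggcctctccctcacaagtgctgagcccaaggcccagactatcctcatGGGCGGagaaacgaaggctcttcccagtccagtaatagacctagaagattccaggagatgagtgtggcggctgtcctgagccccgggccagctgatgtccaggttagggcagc
Kcna5 held none of the 3 motifs and Kcnj3 and Kcnk4 held 1 GC box each. The table held 77 promoters of 53 of the 71 tested members. A GC box was present in 49.4% of them, beside 35.7% of all 32851 promoters of the same length. The TATA box letters were present in 3.9%, beside 13.6%, and those of a cAMP response element in 0 of 77, beside 1.79%. The distance of a match from the start was not tested. The median promoter held 9 CpG dinucleotides among the members and 7 over all. Some genes have several start sites whose windows overlap, so these shares are descriptions.

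In the olfactory bulb 11 members were higher and 10 lower, 29.6% in all against 11.8% of everything tested (6.25% higher, 5.56% lower). Kcnab1 was at the low end here: -1.34 and -1.16 against 1.68 to 4.57 elsewhere (median 2.55), a difference of -4.11 (SE 0.11, adjusted p = 1.14e-05) and the largest of any member in any region. Kcnab3, a beta subunit of the same group, showed the opposite pattern. It read 2.56 and 2.54 against -1.09 to 0.89 (median -0.70), a difference of 2.97 (SE 0.10, adjusted p = 1.74e-05). Kcnab2, the remaining beta subunit, was highest in the hippocampus, at 3.53 and 3.82 against 1.43 to 3.29 elsewhere (median 1.90), a difference of 1.56 (SE 0.072, adjusted p = 0.000132). The 3 beta subunits of Shaker-type channels thus had their highest levels in 3 different regions.

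Kcnip1 and Kcnf1, low in the striatum, were highest in the olfactory bulb. Kcnip1 read 0.54 and 0.70 there (difference 2.09, SE 0.12, adjusted p = 8.04e-05) and Kcnf1 read 3.51 and 3.50 (difference 2.04, SE 0.095, adjusted p = 4.48e-05). Kcnn4, the calcium-activated channel of intermediate conductance, read -2.25 and -2.27 and between -5.72 and -4.00 elsewhere. It was at least 4.33-fold higher in the bulb (adjusted p = 0.000496), a bound since both striatum arrays and prefrontal cortex KO were not well above background. Kcnh8, an ether-a-go-go type channel, was at least 3.01-fold higher on the same basis (adjusted p = 0.00308), with 2 further members of that family, Kcnh5 at 1.31 and Kcnh2 at 1.07, also higher. Kcnj3 was at least 2.05-fold higher, but without the striatum arrays its difference was 0.57 and it was no longer called. Low in the bulb were Kcnk4, a mechanically gated leak channel (-2.54 and -2.80 against -1.60 to 0.95, difference -2.19), and the silent subunit Kcns3 (-3.08 and -3.20 against -2.53 to -0.17, difference -2.12), with adjusted p of 6.58e-05 and 4.48e-05 in the limma fit. For both, the 2 bulb arrays stood below all others. Kcnq5, a pore subunit of the M current, was not well above background on the bulb or striatum arrays, so its difference has no fold.

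The prefrontal cortex had 15 members higher and 6 lower, 29.6% against 8.01% of everything tested (3.31% higher, 4.7% lower). The median member stood at 0.36, the median over everything at -0.022. With arrays scaled on their median, which moves the median over everything to 0.13, the split was 24 higher and 5 lower, and with normexp it was 8 and 3. Of everything tested, median scaling called 4.74% higher and 3.34% lower, and normexp 1.91% and 1.42%. Kcnk4 was highest here, at 0.65 and 0.95 against -2.80 to -0.29 elsewhere (median -1.18), a difference of 2.14 (SE 0.12, adjusted p = 0.000192). Kcnmb4, the neuronal beta subunit of the large-conductance calcium-activated channel, read 5.55 and 5.70 against 3.75 to 4.67 (median 3.97), a difference of 1.50 (SE 0.066, adjusted p = 0.000123). In each case both cortex arrays stood above all others. The silent subunit Kcns3 read -0.20 and -0.19 and differed by 1.56 (SE 0.10, adjusted p = 0.000276), with the hippocampus arrays at -0.25 and -0.17 level with it. Kcns1, another silent subunit, read -1.93 and -1.46 against -5.43 to -2.46 (difference 1.83, SE 0.48, adjusted p = 0.0254). The lowest of these, striatum WT, was not well above background, and with it at its lowest level well above background the difference was 1.63. The difference was 0.84 with normexp, and without the olfactory bulb arrays its adjusted p was 0.0914.

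Kcnh7, an ether-a-go-go related gene, was at least 2.59-fold higher in the cortex (adjusted p = 0.000419) and Kcnq5 at least 2.74-fold (adjusted p = 0.0292). Neither was past 2-fold with normexp. In the cortex 52 of the 71 members stood above 0, beside 11920 of the 24863 tested. They included 7 of 7 silent subunits, with 3 called, and 4 of 4 Shaw-type subunits, with 2 called, Kcnc2 at 1.43 and Kcnc4 at 1.23. Low in the cortex were Kcna5 (-2.73 and -3.25, difference -2.36, adjusted p = 0.000179) and the KCNE gene listed as Kcne1l (-1.09 and -1.19 against -0.35 to 1.15, difference -1.77, adjusted p = 0.000147). Kcna5 in the hippocampus, at -3.32 and -3.69, was lower still. Kcnh8 and Kcnn4 were called lower too, but both striatum arrays were not well above background, so these differences have no fold. Without the olfactory bulb arrays the adjusted p of Kcnh8 was 0.0611. The cortex was also where 7 of 8 pan-neuronal genes were highest, with a summed log2 level of 8.39 and 8.44 against 7.59 to 7.98 on the other 8 arrays of the 5 regions; their part in the count of members was not tested.

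In the hippocampus 8 members were higher and 5 lower, 18.3% against 7.49% of everything tested (4.69% higher, 2.8% lower). Besides Kcnab2 and Kcns3 (difference 1.54, adjusted p = 0.000333), Kcnab1 was higher at 3.01 and 3.14 (difference 1.30, SE 0.11, adjusted p = 0.000781), though below its striatum level. Without the olfactory bulb arrays, where it was lowest, the difference was 0.29 and was not called. The silent subunits Kcng4 and Kcng3 were highest here. Kcng4 read -2.36 and -2.55 against -4.72 to -2.70 elsewhere (difference 1.21, SE 0.22, adjusted p = 0.00828), where the lowest, striatum WT, was not well above background. With normexp its difference was 0.42 and was not called. Kcng3 was at least 2.21-fold higher (adjusted p = 0.0402), but it was not called in 7 of the alternatives run, with an adjusted p of 0.0725 without the olfactory bulb arrays and a difference of 0.51 with the mean of its probes. Kcnj6, the partner of Kcnj3, differed by 1.11 (SE 0.14, adjusted p = 0.0027), with striatum WT, on the lower side, not well above background.

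Kcna5 and Kcnt1, high in the striatum, were lowest in the hippocampus. Kcna5 was 8.02-fold lower there (SE 0.12 in log2, adjusted p = 0.000108), and Kcnt1, at 1.33 and 1.30 against 3.11 to 5.78 (median 3.36), differed by -2.56 (SE 0.083, adjusted p = 7.36e-05). The other probes of Kcnt1 split: 1 gave -2.59 and 1 gave 0.019. Kcnf1 differed by -1.61 (adjusted p = 0.000264) and Kcnh5, at -3.03 and -2.98, by -1.14 (adjusted p = 0.0011). The difference of Kcnh5 shrank to -0.87 without the olfactory bulb and to -0.98 without the prefrontal cortex, past the 2-fold line in neither. Kcnj12, an inward rectifier, read -1.60 and -2.11, below all other arrays, and differed by -1.13 (adjusted p = 0.00467), while in the prefrontal cortex it was highest (difference 1.05).

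The hypothalamus had 4 members higher and 6 lower, 14.1% against 6.97% of everything tested (3.1% higher, 3.87% lower), and the median member stood at -0.26 beside -0.14 over everything. Scaled on the median of the array, the split was 6 higher and 3 lower, and with quantile normalization 6 and 4. Of everything tested, median scaling called 4.19% higher and 2.47% lower, and quantile normalization 3.8% and 2.36%. Kcna1, a Shaker-type subunit of axons, read 3.59 and 3.63 against 3.95 to 5.43 elsewhere (median 4.95), a difference of -1.24 (SE 0.11, adjusted p = 0.000866). Both hypothalamus arrays stood below all others for this gene. Kcnab3 differed by -1.49 (SE 0.10, adjusted p = 0.000436) but by -0.80 without the olfactory bulb arrays, and Kcng4 by -1.05. Among the higher genes, Kcnj16, an inward rectifier subunit of glia and kidney, read 1.05 and 1.08 (difference 1.06, SE 0.078, adjusted p = 0.000557) and Kcnc4 read 1.33 and 1.29 (difference 1.04, SE 0.11, adjusted p = 0.00128). Kcna5, at -0.16 and -0.03, differed by 1.26 (adjusted p = 0.00116), and by 0.71 without the prefrontal cortex and 0.54 without the hippocampus, where it is lowest. Kcnj16 fell below the 2-fold line without the striatum (0.76) or the hippocampus (0.88), Kcnc4 without the olfactory bulb (0.83) or the striatum (0.69), and Kcng4 without the prefrontal cortex (-0.94) or the hippocampus (-0.80), with median scaling (-0.91) or with quantile normalization (-0.83). With the amygdala arrays included, 4 members were called in the hypothalamus, beside 3.54% of everything tested, and Kcnj16, Kcnc4 and Kcng4 were among those below the 2-fold line. The array labelled amygdala WT, which lay close to hypothalamus WT, counted there as another region. Without that array, on 11 arrays, 4 members and 3.84% of everything tested were called.

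Kcne2, an auxiliary subunit that is abundant in the epithelium of the choroid plexus, followed another pattern. It read 0.17 (WT) and 1.18 (KO) in the hippocampus and 0.79 and -0.28 in the hypothalamus. The olfactory bulb, at -3.78 and -3.62, and the prefrontal cortex, at -4.41 and -4.32, were low, as was the striatum at -3.69 (not well above background) and -2.18. The hippocampus differed from the other regions by 3.36 (SE 0.46, adjusted p = 0.00357), the hypothalamus by 2.84 (adjusted p = 0.00504), the olfactory bulb by -2.11 (adjusted p = 0.0112) and the prefrontal cortex by -2.94 (adjusted p = 0.00448). Of 8 choroid plexus markers 7 were tested. Their summed log2 level was -0.27 and -0.46 in the prefrontal cortex, 1.59 and 2.26 in the striatum, 2.18 and 2.20 in the olfactory bulb, 3.55 and 4.34 in the hippocampus and 4.19 and 3.33 in the hypothalamus. Ttr, which encodes transthyretin, read 2.02 and 3.07 in the hippocampus and 2.71 and 1.55 in the hypothalamus. It read -4.20 and 0.05 in the striatum, and lay between -6.91 and -6.10 in the olfactory bulb and the prefrontal cortex. Taken singly, 5 of the 7 markers were highest in the hippocampus, 1 in the hypothalamus and 1 in the olfactory bulb. The last was Aqp1, at 1.61 and 1.84 in the bulb against -1.03 and -0.20 in the hippocampus. Clic6 read 1.15 and 1.31 in the striatum, where Kcne2 was low, and 1.71 and 2.46 in the hippocampus. The part of choroid plexus tissue in the Kcne2 values was not tested.

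**Figure D3:**
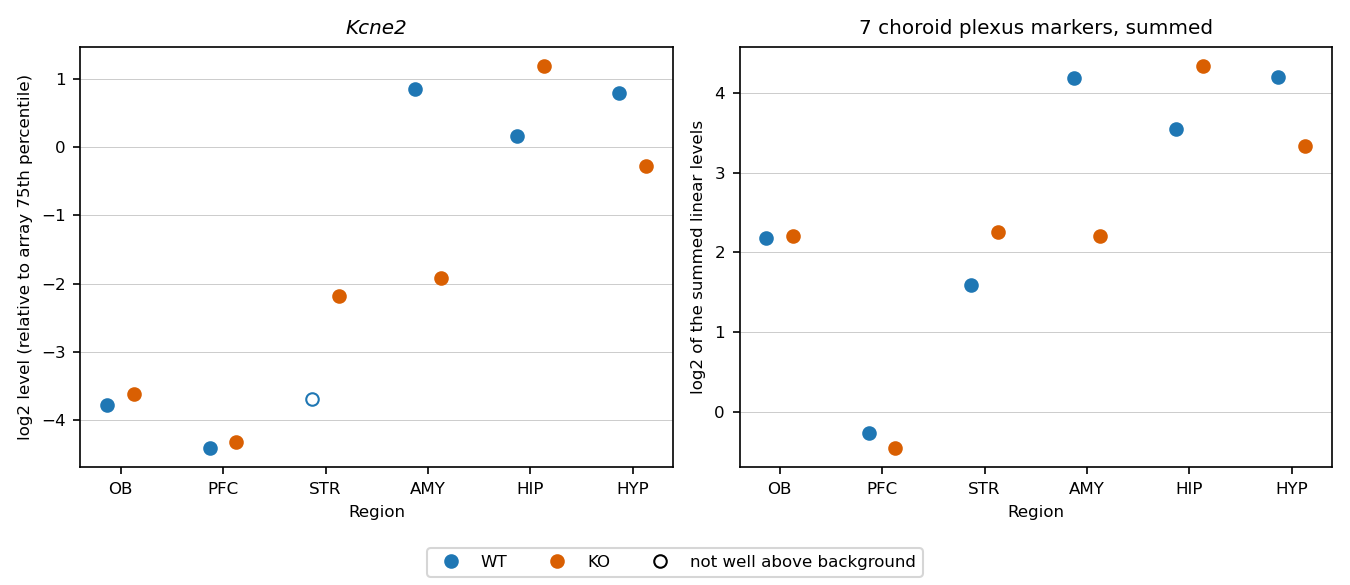
Log2 level of Kcne2 (left) and log2 of the summed linear levels of 7 choroid plexus markers (right) on the 12 arrays, by region (abbreviated as in the heatmap), blue for WT and orange for KO; the open point was not well above background. Both panels are lowest in the prefrontal cortex, and in the amygdala, hippocampus and hypothalamus the array of a pair that is higher on the left is also higher on the right.

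Kcnj9 and Kcnj10 lie next to each other in the RefSeq gene order with 0 coding genes between them, and their regional patterns differed. Kcnj9, a neuronal subunit of the G protein-gated channels, was highest in the prefrontal cortex (1.68 and 1.35, difference 1.38, SE 0.094, adjusted p = 0.000324) and lowest in the olfactory bulb (-0.34 and -0.56, difference -1.08). Kcnj10, the main inward rectifier of astrocytes, was highest in the olfactory bulb (3.84 and 4.01, difference 1.11, SE 0.087, adjusted p = 0.000244) and lowest in the striatum (1.98 and 2.14, difference -1.22, adjusted p = 0.000119). Kcnj16, its partner in glia, was also lowest in the striatum, at -0.94 and -0.84 (difference -1.39, adjusted p = 6.36e-05). The summed log2 level of 7 astrocyte markers was lowest in the striatum too, at 4.86 and 4.94, against 5.28 to 5.46 on the other 8 arrays. Taken singly, Aqp4, Aldh1l1, Slc1a3, Gja1 and Fgfr3 were lowest there. Slc1a2 was lowest in the olfactory bulb (0.49 and 0.56, against 2.11 and 2.08 in the striatum), and Gfap in the prefrontal cortex. The part of astrocytes in these values was not tested. The promoters of Kcnj9 and Kcnj10 are shown for the contrast between neighbours, with the same capitals.
Kcnj9 (chr1:172329273-172329572, minus strand): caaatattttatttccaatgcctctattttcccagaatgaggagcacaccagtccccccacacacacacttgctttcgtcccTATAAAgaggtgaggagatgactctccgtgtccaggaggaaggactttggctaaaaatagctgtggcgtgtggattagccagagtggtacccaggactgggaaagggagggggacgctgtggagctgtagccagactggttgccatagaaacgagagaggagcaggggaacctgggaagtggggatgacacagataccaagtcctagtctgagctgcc
Kcnj10 (chr1:172340960-172341259, plus strand): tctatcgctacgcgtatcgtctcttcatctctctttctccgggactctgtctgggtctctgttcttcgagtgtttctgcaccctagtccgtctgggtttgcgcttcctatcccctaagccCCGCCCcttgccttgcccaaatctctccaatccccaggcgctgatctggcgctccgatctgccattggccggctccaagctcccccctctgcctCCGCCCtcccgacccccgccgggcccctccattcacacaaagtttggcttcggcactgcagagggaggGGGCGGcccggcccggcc
The Kcnj9 window held 1 match to the TATA box letters and 5 CpG dinucleotides, the Kcnj10 window 3 matches to the GC box letters and 21. Another adjacent pair, Kcna5 and Kcna1, stood at 1.17 and -0.74 in the olfactory bulb, at 1.26 and -1.24 in the hypothalamus and on the same side, at 2.94 and 0.94, in the striatum, where both genes were highest. The pair Kcnj16 and Kcnj2 stood at -1.39 and 0.73 in the striatum and on the same side, at -0.94 and -0.084, in the hippocampus.

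Among the 12 inward rectifiers tested, calls upward lay in 4 of the 5 regions, and 4 of the 12 were called lower in the striatum, 2 with normexp. Of everything tested, 9.85% were called lower there, and 3.22% with normexp. With normexp the median inward rectifier moved from -0.20 to 0.086 in the striatum, and the median over everything from 0.047 to 0.41. The 7 silent subunits had a median span of 2.30, or 1.85 with dim arrays at their lowest level well above background, and 5 of them were called lower in the striatum, where their median difference was -1.24. With normexp background correction that median was 0.25, beside 0.41 over everything, 5 of the 7 stood above 0 and 1 was called lower. The 7 leak channels had a median span of 1.24. Kcnk1 and Kcnk2, both of this family, were called in no region. Shal-type Kcnd2 and Kcnd3 were called in none either, with spans of 1.33 and 1.10. Of 21 members with more than 1 probe, 18 had another probe above background on at least 6 arrays. Of 22 comparisons of a call with a further probe of the gene, 20 had the same sign. The exceptions were the dimmest of the 3 probes of Kcnt1 in the hippocampus and a further probe of Kcnj4 in the hypothalamus (-1.03 and 0.061).

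Partner proteins of the channels that carry other names gave a comparison. Of 20 such genes listed, 15 were tested and 14 passed the F-test, as did 3 of 3 HCN channels tested of 4 listed, beside the 83.9% of everything tested. Dpp10, which joins Shal-type channels, was higher in the olfactory bulb (difference 1.42), the prefrontal cortex (1.28) and the hypothalamus (1.08) and lower in the striatum (-1.93) and hippocampus (-1.85). Its relative Dpp6 was higher in the hypothalamus (1.05). Abcc8, the sulfonylurea receptor of ATP-sensitive channels, was higher in the hippocampus (1.14) and lower in the olfactory bulb (-1.73). Each of these differences had an adjusted p of at most 0.00153 in the limma fit. Between genotypes, 0 of the 18 differed at an adjusted p under 0.05 in the limma fit, and 4 had an unadjusted p under 0.05. Of everything tested, 0.00402% and 18.2% did.

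Between genotypes, 0 of the 71 members differed across the 5 regions at an adjusted p under 0.05 in the limma fit, where 1 of 24863 genes and transcripts did (0.00402%). At an unadjusted p under 0.05 there were 15 members of 71, beside 18.2% of everything tested. The count of 0 held in each other setting run, including those with 11 and 12 arrays. KO was above WT for 39 of 71, beside 46.3% of everything tested. The same mice may lie behind several regions, and the p-values would then overstate the evidence on genotype. The values that follow belong to 8 of the 10 members chosen for the smallest p, 5 in each direction, with 1 sign in all 5 regions, a condition that 20.8% of everything tested met.

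Kcnk2, a leak channel opened by stretch and by lipids, had the smallest p. KO minus WT was 0.22 in the olfactory bulb, 0.30 in the prefrontal cortex, 0.28 in the striatum, 0.23 in the hippocampus and 0.35 in the hypothalamus, with a fitted difference of 0.28 (SE 0.047, adjusted p = 0.192). In the amygdala it was 0.62. Kcnj10 stood at 0.26 (SE 0.070, adjusted p = 0.201), with 0.51 in the prefrontal cortex, 0.17 to 0.30 in the other 4 regions and -0.20 in the amygdala. Kcnip2, a partner of Shal-type channels, stood at 0.35 (SE 0.098, adjusted p = 0.207), from 0.092 in the hypothalamus to 0.69 in the prefrontal cortex. Kcnh3 stood at 0.24 and Kcnd2 at 0.19, and with the mean of all its probes Kcnd2 stood at -0.028. On the other side, Kcnh7 stood at -0.45 (SE 0.11, adjusted p = 0.199), from -0.75 in the striatum, where neither array was well above background, to -0.029 in the olfactory bulb. Kcnmb2, an inactivating beta subunit, stood at -0.36 (SE 0.14, adjusted p = 0.264) and Kcnj9 at -0.25. None of these 8 passed the threshold.

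Within single regions, 1 WT and 1 KO array were set side by side with no test, and a member was counted where both arrays were well above background and the levels lay at least 2-fold apart. The amygdala pair had 4 such members of 69, beside 6.79% of everything so measured. Kcne2 read 0.84 on WT and -1.92 on KO, a difference of -2.76 with a spot error of 0.21, an error of the scan alone that leaves out variation between animals. Kcng3 went the other way, from -3.76 to -1.41 (difference 2.36, spot error 0.25). Kcnj1, an inward rectifier known from the kidney, differed by -1.56 and Kcnq1ot1 by -1.24. The choroid plexus markers read 4.18 and 2.21 summed on these 2 arrays. Set against hypothalamus KO instead, amygdala KO differed by at least 2-fold in Kcne2 (-1.64), Kcne1l (-1.04) and Kcng3 (2.68). The median member was at 0.16, everything at -0.053. Scaled on the median of the array, everything stood at 0.16 and 8 members were counted, 5 higher and 3 lower. The share of everything at 2-fold is not given for that scaling, so the 8 are not a result about the members.

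**Figure D4:**
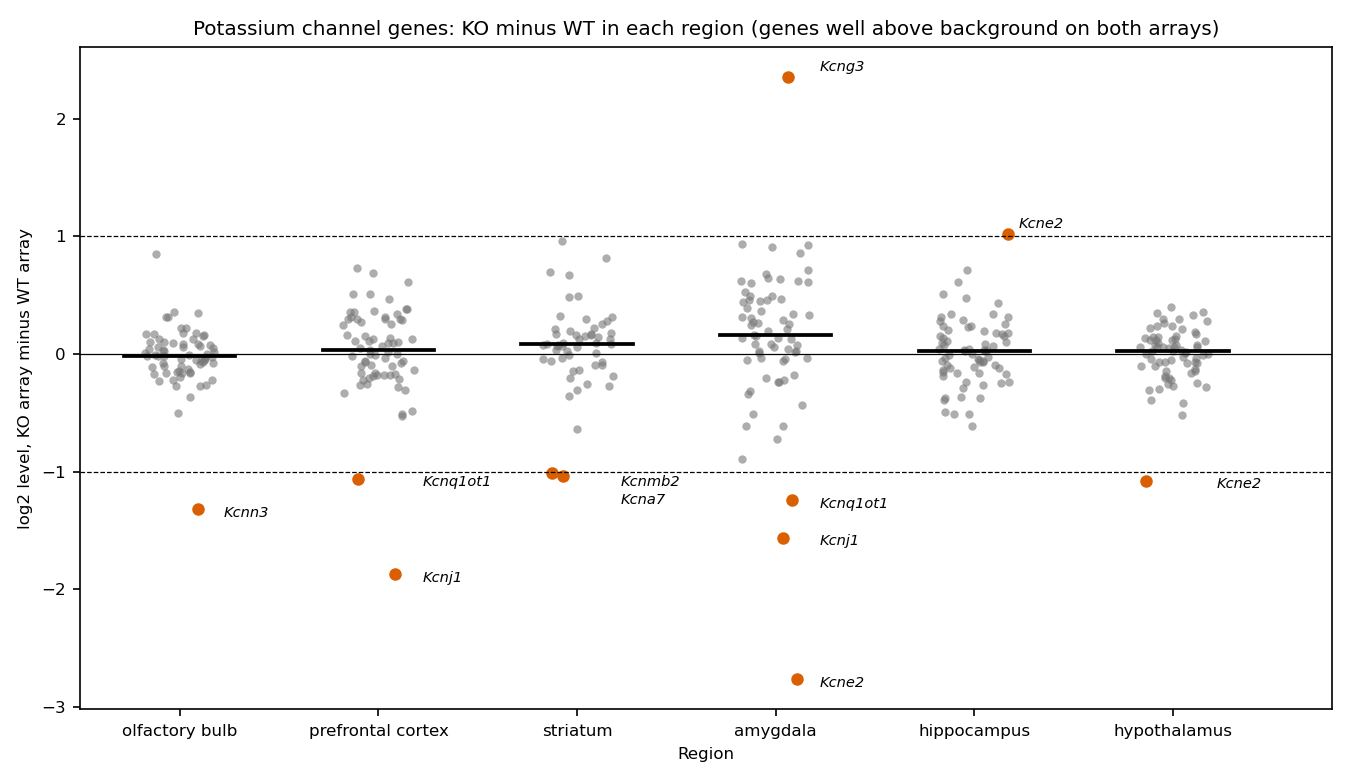
KO minus WT difference in log2 for each potassium channel gene well above background on both arrays, by region, with 1 array per genotype. Grey points are single genes, black bars the medians, dashed lines mark 2-fold, and orange points past them are named. The amygdala spreads widest, from -2.76 (Kcne2) to 2.36 (Kcng3), and 1 or 2 genes are past the lines in each other region.

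In the olfactory bulb 1 member of 68 was counted, Kcnn3, a small-conductance calcium-activated channel (-3.33 and -4.65, difference -1.32), beside 0.768% of everything. The prefrontal cortex had 2 of 69 (4.25%), Kcnj1 (-1.82 and -3.69, difference -1.87) and Kcnq1ot1 (0.49 and -0.57, difference -1.06). The striatum had 2 of 53 (1.45%), the Shaker-type Kcna7 (difference -1.04) and Kcnmb2 (-1.01), and 18 members there were not well above background on both arrays. The hippocampus had 1 of 71 (1.59%) and the hypothalamus 1 of 70 (0.938%), in both cases Kcne2, with opposite signs: 1.02 and -1.08. The choroid plexus markers moved the same way as Kcne2 in both regions, from 3.55 to 4.34 and from 4.19 to 3.33. The authors' deposited table of KO over WT ratios lists 39 to 56 members per region. At 2-fold it held 0 members in the olfactory bulb, 2 in the prefrontal cortex and 1 in the striatum. It held 3 in the amygdala, 1 in the hippocampus and 1 in the hypothalamus. Its share over all genes is not given here. By the levels used here, Kcnj1 and Kcnq1ot1 were below WT by at least 2-fold in both the prefrontal cortex and the amygdala. The WT side in the amygdala is the array that went against its label, so tissue and genotype cannot be told apart there. In the striatum and hippocampus Kcnj1 stood above WT, by 0.54 (WT array not well above background) and 0.71.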

How the data were processed

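Total RNA of the 12 pools was hybridised to one-colour arrays. The spot intensity values were deposited as output of Agilent Feature Extraction 9.5.3.1 and were background-subtracted and not scaled between arrays, per the file headers. A further table deposited by the authors gives ratio values, KO over WT, on a linear scale. The sources used here do not say how it was scaled.

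Log2 of the processed intensity minus the array's 75th percentile over 43379 gene spots was used. Control spots and 61 to 143 outlier spots per array were left out, and spots of a probe were averaged. Accessions of 22951 of 41174 probes matched a RefSeq table (GRCm38.p6, used for names and gene order), giving 16358 named genes. Tests used limma 3.58.1 (R 4.3.3; lmFit with eBayes, region plus genotype, 10 arrays, 4 residual degrees of freedom), with Benjamini-Hochberg adjustment over 24863 genes and transcripts and a threshold of 0.05. Region calls also needed a log2 difference of 1. The script was tested on simulated data. A fold where both arrays of a region were not well above background is a bound, computed with every dim array on the lower side at that array's lowest level well above background, where its own level was below it; it gives no fold where the dim side is the higher, or the fold is under 1. The number of arrays limits the precision. With 1 WT and 1 KO array per region, the p-values rest on how KO minus WT varied between regions. No region and genotype had a repeat pool, and no spread between slides of a region enters the p-values. The members, gene lists and families were chosen with earlier results of these data known. Named by rule were up to 6 higher and 4 lower members per region, the genotype values described, and members at 2-fold within a region; further members are examples chosen with their values in view. Results for some genes are not reported here.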

Additional observations from a re-analysis of the deposited data

Results flagged for a closer look

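For 16 members named for a genotype difference, the highest or lowest of the 6 regional KO minus WT differences was compared with the other 5 by Dixon's criterion at 0.625, and 3 of the 16 exceeded it. Chance passes about 1 in 20 groups chosen without regard to their values; that rate does not apply here, since these members were named for the same differences. Kcnh3 differed by 0.93 in the amygdala and by 0.083 to 0.38 in the other regions. Kcnk2 differed by 0.62 in the amygdala and by 0.22 to 0.35 elsewhere. Kcnmb2 differed by -1.01 in the striatum and by -0.43 to -0.10 elsewhere. In the first 2 cases the WT side is the array labelled amygdala WT, whose levels lie closest to hypothalamus WT.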

How the results depend on the processing

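The count of members called between regions by the F-test and the genotype count of 0 stayed within 1.5 times under every alternative run. Leaving out 1 region at a time gave 60 to 64 members by the F-test and 0 by genotype. The region counts were 19 to 23 in the olfactory bulb, 18 to 24 in the prefrontal cortex and 21 to 27 in the striatum. They were 11 to 16 in the hippocampus and 8 to 13 in the hypothalamus. The share of everything tested moved as well. It was 11.2% to 14.3% in the olfactory bulb and 21.2% to 23.4% in the striatum. In the hippocampus it was 6.92% to 10.3%, and in the hypothalamus 6.55% to 10.1%. In the prefrontal cortex it was 6.71% without the striatum (18 members) and 10.4% without the hypothalamus (24 members). The shares by the F-test and by genotype are not given for these runs. Normexp background correction on the median spot signal, chosen after seeing the data because the files used here have no mean spot signal, called fewer members: 12 in the olfactory bulb, 11 in the prefrontal cortex, 12 in the striatum, 7 in the hippocampus and 4 in the hypothalamus. It also called a smaller share of everything tested in each region, 6.5%, 3.34%, 13.6%, 3.25% and 2.89% in the same order. The planned normexp correction on the mean signal was not run. With probes above background on all 12 arrays, 13 members were called in the prefrontal cortex and 8 in the hippocampus, out of 53 tested. The shares over everything tested were then 7% and 5.49%. With all 12 arrays or with 11, 4 were called in the hypothalamus, beside 3.54% and 3.84% of everything tested. Within regions, the counts at 2-fold were 0 (normexp), 2 (quantile), 0 (all-12 filter) and 0 (the authors' table) in the olfactory bulb, 1 (normexp), 1 (median scaling) and 1 (all-12 filter) in the prefrontal cortex, 0 (normexp) and 1 (the authors' table) in the striatum, 8 (median scaling) and 1 (all-12 filter) in the amygdala, 0 (normexp), 0 (median scaling) and 0 (all-12 filter) in the hippocampus and 0 (all-12 filter) in the hypothalamus. The share of everything at 2-fold is not given for these settings, so these counts are not a result about the members. Kcnd2 turned from 0.19 to -0.028 between genotypes with the mean of its probes. Of 56 differences named, 16 fell below their line with normexp, 5 with 12 arrays and 6 with 11. With normexp all 16 kept an adjusted p under 0.05 in limma and fell short of 2-fold: Kcnn4, Kcnh8, Kcnj3 and Kcnq5 in the olfactory bulb, Kcns1, Kcnh7, Kcnq5 and Kcnh8 in the prefrontal cortex, Kcnj3 in the striatum, Kcng3, Kcng4 and Kcnh5 in the hippocampus, and Kcna5, Kcnj16, Kcnc4 and Kcng4 in the hypothalamus, where the split was 1 higher and 3 lower. Normexp here added 50 to every corrected signal. The 75th percentile of the processed signal was 208 and 272 on the striatum arrays and 502 to 768 on the others. The cause of these changes was not tested. Neither was the part of the added 50, or of the smaller numbers of genes and arrays in some settings. The genotype fit was itself paired by region, over 5 pairs of WT and KO arrays; beyond it, no paired analysis was possible because each region and genotype had 1 array.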
